A study of Mus musculus with 6 samples.

Results

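*PLPP3* and genes of lysophosphatidic acid (LPA) signaling were examined in CFPAC-1 cells, a human line of pancreatic adenocarcinoma (PAAD), after transfection with a siRNA against *KRT7*. The genes were *PLPP1*, *PLPP2*, *PLPP3*, *LPAR1*, *LPAR2*, *LPAR3*, *LPAR6*, *ENPP2* and *SPHK1*, looked up by Ensembl identifier. Of these 9, 8 were analysed among the 30543 genes of the count table, and *ENPP2* (ENSG00000136960) was not analysed here. The genes were chosen on the contrast described here, since *PLPP3* was known to be much lower in si-KRT7 cells, and the others were added as its relatives in lipid signaling. Their fold changes are therefore given as a description, with standard errors and without p-values.

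Lipid phosphate phosphatases are enzymes of the plasma membrane with an active site that faces the outside of the cell. They remove the phosphate from LPA, sphingosine 1-phosphate (S1P) and related lipids, which ends the action of these lipids on their receptors. Outside the cell LPA is made mainly by autotaxin, the product of *ENPP2*, and it acts on G protein-coupled receptors that drive contraction, migration and growth in many epithelial cells. S1P is made inside the cell by sphingosine kinases such as *SPHK1*.

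The si-Control group (3 libraries) received a negative control siRNA and the si-KRT7 group (3 libraries) received a siRNA against *KRT7*, the keratin that the study knocked down. All 6 libraries came from this single line, and the labels give no dose, time after transfection or siRNA duplex. The study lists more than a single duplex against *KRT7*, and whether the 3 si-KRT7 libraries shared a duplex is not given. The labels also do not say whether the replicates were separate transfections. The legend of the study's figure with the RNA-seq panels speaks of means and SDs from 3 independent experiments. It does not say whether this covers the sequenced libraries, so the spread between libraries may be technical. The organism given in the labels is the mouse, although the line and all 30543 identifiers are human, and names are known here only for the 9 listed genes. The *KRT7* transcript and markers of the cell type were for that reason not looked up. The knockdown itself was thus not checked in these libraries, while the study reports it in CFPAC-1 cells by RT-qPCR.

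Between 28208896 and 36315802 reads were counted per library, and the 8 genes had between 257 and 2065 reads each. Counting alone gave their values a relative error of 2.20% to 6.24%. One library stood apart. Across the genes tested, si-KRT7 replicate 2 correlated with si-KRT7 replicates 1 and 3 at no more than 0.982 (Pearson r of log2 CPM), against 0.992 between those replicates and 0.983 to 0.986 between the groups. The values of this library are therefore shown apart for each gene.

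*PLPP3* (ENSG00000162407) was the gene of the set with the largest difference. Its product, also known as LPP3, degrades extracellular LPA and S1P. Its level, in CPM (reads per 1000000 counted, after TMM scaling of the libraries), was 44.2, 42.5 and 42.2 in si-Control replicates 1, 2 and 3 and 14.2, 11.2 and 13.3 in those of si-KRT7. Every si-KRT7 library lay far below every si-Control library, and replicate 2, which stood apart over all genes, was the lowest of the 3. The group means were 43.0 ± 1.11 CPM (SD, n = 3) and 12.9 ± 1.55 CPM (SD, n = 3), so si-KRT7 cells held 30.0% of the control level. The log2 fold change was -1.73 (standard error 0.11, 95% interval -1.98 to -1.48), which is a 3.32-fold lower level. Only 10 of the 15736 genes tested had a lower log2 fold change.

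The relative spread of *PLPP3* among the si-Control libraries was 2.59%, no wider than the 2.55% to 2.74% that counting error gives to one of these libraries. Among si-KRT7 libraries it was 12.0%, against a counting error of 4.35% to 5.70%. In each si-KRT7 library the level was between 26.1% and 33.1% of the control mean. Without replicate 2 the log2 fold change was -1.64 (standard error 0.07). In bulk RNA, fewer cells that hold a transcript and less of it per cell cannot be told apart, and neither phosphatase activity nor lipid levels were measured here.

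The other phosphatases of the set differed far less. *PLPP1* (ENSG00000067113), which encodes the closely related LPP1, had 14.9, 13.9 and 14.5 CPM in si-Control replicates 1, 2 and 3. In si-KRT7 replicates 1, 2 and 3 it had 14.9, 13.7 and 15.1 CPM. The groups overlapped, with replicate 2 slightly below and replicate 3 slightly above all controls. Its log2 fold change was 0.01 (standard error 0.10), with a 95% interval of -0.21 to 0.24 that leaves room for a change of that size in either direction.

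*PLPP2* (ENSG00000141934) encodes LPP2, the third enzyme of the family. It stood at 58.1, 57.1 and 60.6 CPM in the si-Control libraries. The si-KRT7 libraries had 50.8, 62.7 and 46.8 CPM in replicates 1, 2 and 3, so replicates 1 and 3 lay below all controls and replicate 2 above them. The log2 fold change over all libraries was -0.13 (standard error 0.12, 95% interval -0.40 to 0.13). It was -0.27 (standard error 0.06) without replicate 2.

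**Figure D1:**
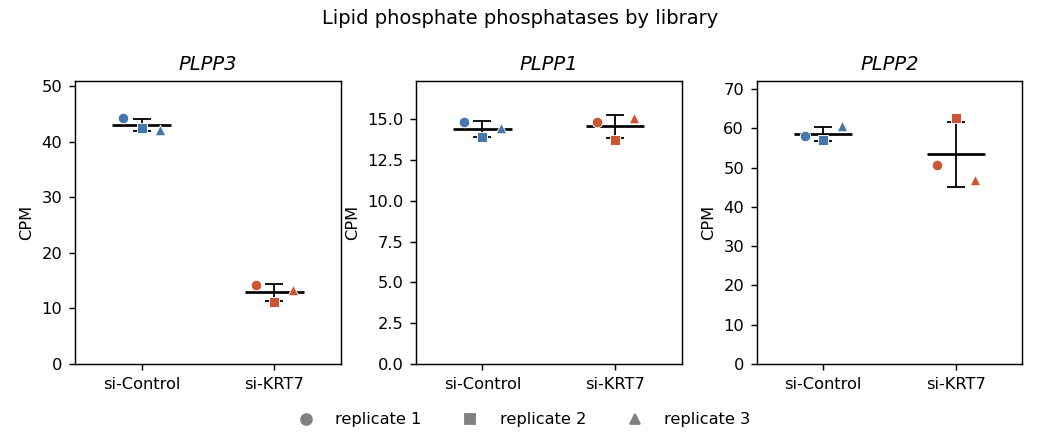
CPM of PLPP3, PLPP1 and PLPP2 in the si-Control and si-KRT7 libraries, with each point a library, the long line the group mean and the bar 1 SD (n = 3). The si-KRT7 libraries hold 11.2 to 14.2 CPM of PLPP3 against 42.2 to 44.2 CPM in the controls, while those of PLPP1 and PLPP2 overlap with the controls.

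The contrast between the phosphatases did not depend on scaling between libraries. Per 100 reads of *PLPP1* in the same library there were 298, 305 and 291 reads of *PLPP3* in the si-Control replicates. In si-KRT7 replicates 1, 2 and 3 there were 95.8, 81.5 and 88.0 reads. The means were 298 ± 7.18 and 88.4 ± 7.19 (SD, n = 3 each), a 3.37-fold difference with no overlap. Reads of *PLPP2* per 100 reads of *PLPP1* were 406 ± 14.1 in si-Control and 369 ± 76.9 in si-KRT7 cells (SD, n = 3 each), and these groups overlapped, with 342, 456 and 310 reads in si-KRT7 replicates 1, 2 and 3. A read ratio also carries the unequal lengths of the transcripts, so it compares libraries and does not give the ratio of molecules.

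The LPA receptors fell into a pair with lower and a pair with slightly higher mean levels in si-KRT7 cells. *LPAR1* and *LPAR2* had no overlap between the groups, whereas *LPAR3* and *LPAR6* did overlap. *LPAR1*, *LPAR2* and *LPAR3* belong to the endothelial differentiation gene (EDG) family of receptors, and *LPAR6* to a family related to purinergic receptors.

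*LPAR1* (ENSG00000198121) encodes an LPA receptor found in many tissues, which signals through several classes of G protein. Its level was 32.2, 31.2 and 29.7 CPM in the si-Control libraries and 23.5, 17.0 and 21.0 CPM in si-KRT7 replicates 1, 2 and 3. All si-KRT7 libraries were below all controls, at 54.7% to 75.6% of the control mean, with replicate 2 the lowest. This gave a log2 fold change of -0.60 (standard error 0.13, 95% interval -0.89 to -0.31), and -0.48 (standard error 0.07) without replicate 2.

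*LPAR2* (ENSG00000064547) had 15.3, 14.6 and 16.5 CPM in the si-Control libraries. It had 9.50, 12.0 and 8.34 CPM in si-KRT7 replicates 1, 2 and 3, again below every control. Here replicate 2 was the highest of the si-KRT7 libraries, at 77.5% of the control mean. The log2 fold change was -0.64 (standard error 0.15, 95% interval -0.97 to -0.31), and -0.79 (standard error 0.11) without replicate 2.

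*LPAR3* (ENSG00000171517) stood at 23.7, 24.5 and 21.9 CPM in the si-Control and at 27.4, 21.7 and 29.8 CPM in the si-KRT7 libraries. Replicates 1 and 3 of si-KRT7 were above all controls and replicate 2 was below them. The resulting log2 fold change was 0.17 (standard error 0.13, 95% interval -0.12 to 0.47). Without replicate 2 it was 0.29 (standard error 0.08).

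*LPAR6* (ENSG00000139679) ranged from 12.7 to 13.2 CPM in the si-Control libraries and had 16.4, 11.6 and 13.6 CPM in si-KRT7 replicates 1, 2 and 3. Replicates 1 and 3 were above and replicate 2 was below all controls, as for *LPAR3*. The log2 fold change was 0.10 (standard error 0.14, 95% interval -0.21 to 0.42), and 0.22 (standard error 0.10) without replicate 2. The *LPAR6* gene lies within an intron of *RB1* on the other strand. Whether counting used the strand is not given in the sources used here, so reads of *RB1* transcripts before splicing cannot be told apart from those of *LPAR6*.

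**Figure D2:**
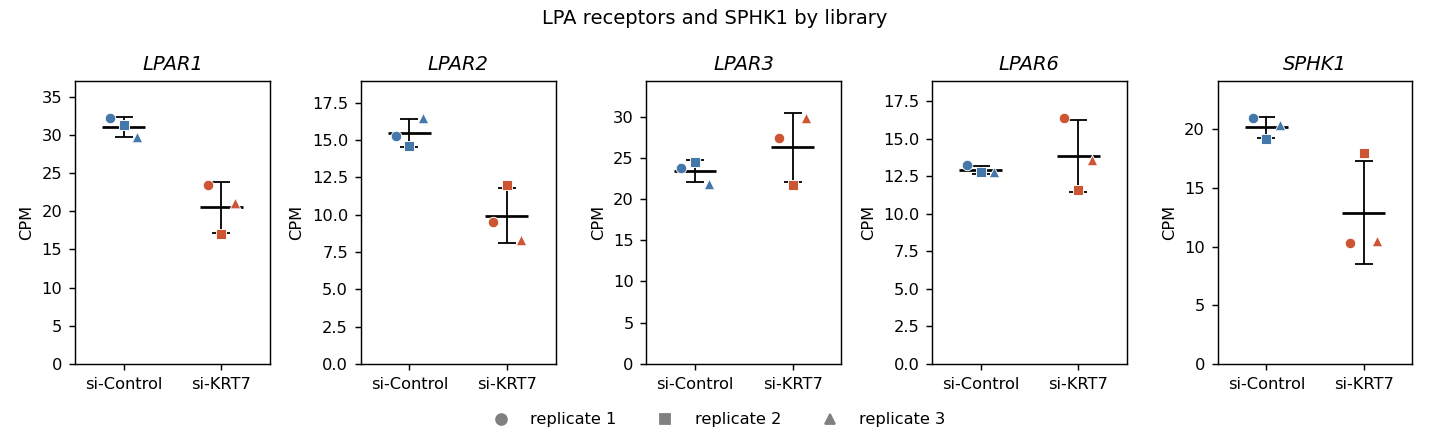
CPM of LPAR1, LPAR2, LPAR3, LPAR6 and SPHK1 by library, with each point a library, the long line the group mean and the bar 1 SD (n = 3). LPAR1, LPAR2 and SPHK1 lie below the controls in all 3 si-KRT7 libraries, as do 13.0% of all genes tested. Replicate 2 of si-KRT7 (square) is the lowest or the highest of its group in each panel.

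Of the EDG receptors, *LPAR1* and *LPAR3* were also compared within a library, without *LPAR2*. Reads of *LPAR1* per 100 reads of *LPAR3*, a ratio picked after the values were seen, were 136, 127 and 136 in si-Control replicates 1, 2 and 3. They were 85.8, 78.4 and 70.5 in those of si-KRT7. Replicate 2 lay between the other si-KRT7 libraries in this ratio, although each of the genes alone was lowest there. The means were 133 ± 4.82 and 78.2 ± 7.66 (SD, n = 3 each), with no overlap.

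**Figure D3:**
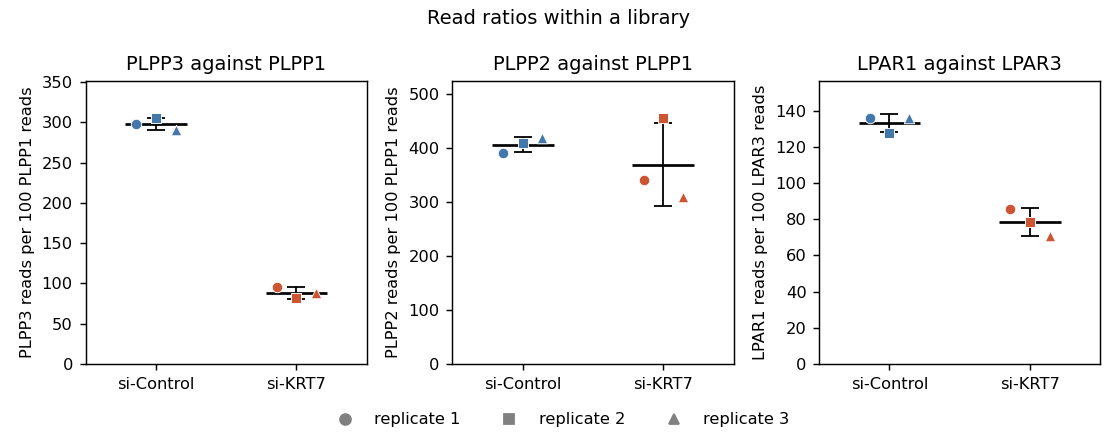
Reads of PLPP3 and PLPP2 per 100 reads of PLPP1, and of LPAR1 per 100 reads of LPAR3, in each library, with the group mean (long line) and 1 SD (bar, n = 3). In the first and the last panel the groups do not overlap, with means of 298 against 88.4 and of 133 against 78.2.

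*SPHK1* (ENSG00000176170), the kinase that makes S1P, showed the widest relative spread of the 8 genes in si-KRT7 cells (33.9% of the mean). It stood at 20.9, 19.2 and 20.3 CPM in the si-Control libraries. In si-KRT7 replicates 1 and 3 it had 10.3 and 10.4 CPM, and in replicate 2 it had 17.9 CPM. All were below the controls, but replicate 2 kept 89.0% of the control mean where the others had 51.1% and 51.9%. Over all libraries the log2 fold change was -0.65 (standard error 0.21, 95% interval -1.12 to -0.18), and -0.96 (standard error 0.09) without replicate 2.

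**Figure D4:**
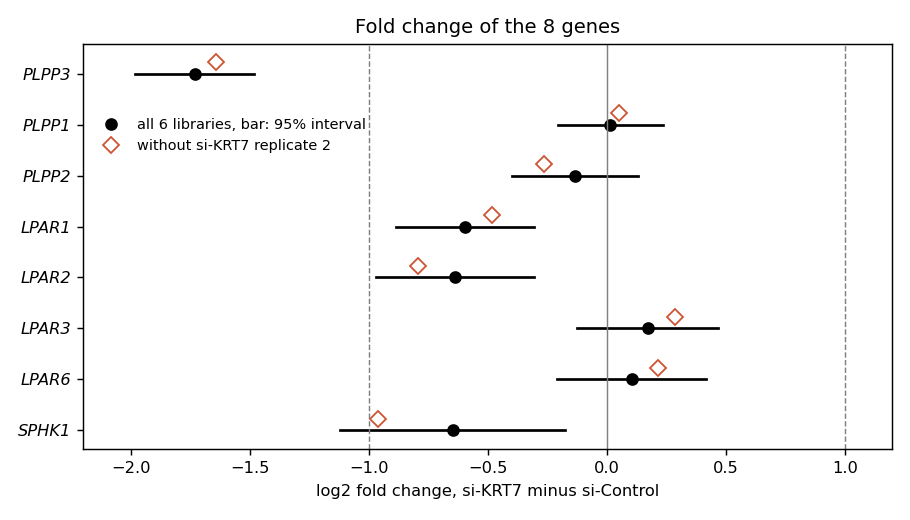
Log2 fold change of the 8 genes (horizontal axis, si-KRT7 minus si-Control), with filled points and 95% intervals from all 6 libraries and open diamonds from the fit without si-KRT7 replicate 2. The point and interval of PLPP3 lie beyond the dashed limit of -1, and those of the other genes lie nearer to 0, except that the interval of SPHK1 reaches -1.12.

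The limits for a call were an adjusted p under 0.05 in edgeR's quasi-likelihood test across all genes and an absolute log2 fold change over 1. *PLPP3* passed both, as 1 of the 8 genes, whereas 0.292% of the 15736 genes tested did (46 genes, 23 higher and 23 lower). *PLPP3* was also the only 1 of the 8 past the limit on the adjusted p alone, which 2.07% of all genes passed. The groups did not overlap, with si-KRT7 lower, in 4 of the 8 genes (*PLPP3*, *LPAR1*, *LPAR2* and *SPHK1*), as in 13.0% of all genes. None of the 8 was higher without overlap, as 1785 of the 15736 genes tested were. The median log2 fold change was -0.37 over the 8 genes and 0.01 over all genes tested. Since the contrast itself led to the choice of the genes, nothing is read from these counts.

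Replicate 2 of si-KRT7 weighed on the calls. In the fit without it, 6 of the 8 genes (*PLPP2*, *PLPP3*, *LPAR1*, *LPAR2*, *LPAR3* and *SPHK1*) passed the adjusted p, and so did 42.9% of the 16202 genes then tested. *PLPP3* was still the only 1 of the 8 with an absolute log2 fold change over 1. Relative to the mean of replicates 1 and 3, replicate 2 was lower in log2 CPM for *PLPP3* (-0.29), *LPAR1* (-0.39), *LPAR3* (-0.40), *LPAR6* (-0.36) and *PLPP1* (-0.12). It was higher for *SPHK1* (0.79), *LPAR2* (0.43) and *PLPP2* (0.36). The median size of this deviation was 0.38 over the 8 genes and 0.34 over all genes. The part of this library in the results was not tested beyond leaving the library out.

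**Figure D5:**
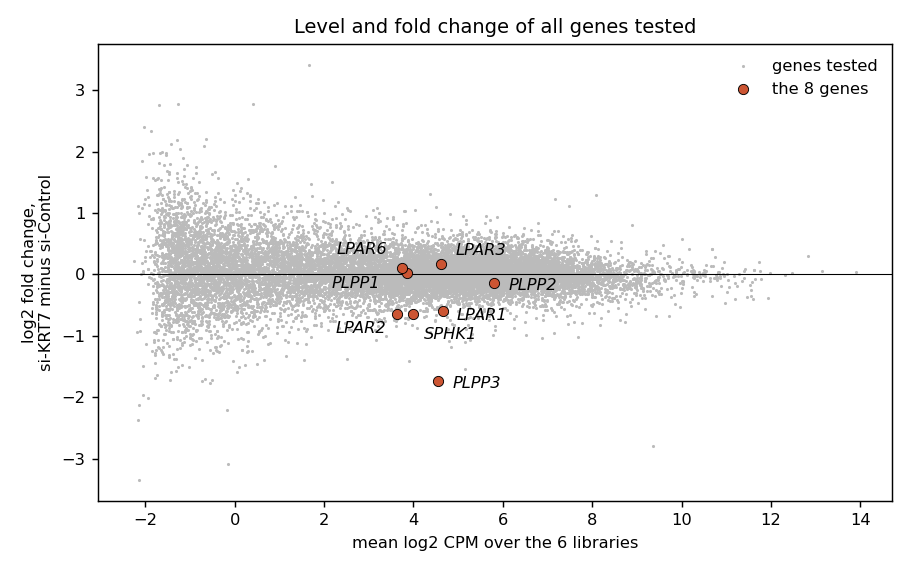
Mean log2 CPM over the 6 libraries (horizontal axis) and log2 fold change of si-KRT7 against si-Control (vertical axis) for the 15736 genes tested (grey), with the 8 genes marked. PLPP3, at -1.73, lies below nearly all genes, and the other 7 lie between -0.65 and 0.17.

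The genes with the pattern most like *PLPP3* were sought among 12461 others with a mean of at least 50 counts. Likeness was the root mean square difference in log2 CPM, relative to each gene's si-Control mean, over the 6 libraries. The closest identifier was ENSG00000165410, with a difference of 0.14. It stood at 60.6 ± 3.06 CPM in si-Control and at 22.3, 17.8 and 22.2 CPM in si-KRT7 replicates 1, 2 and 3. Replicate 2 was the lowest, an order shared with *PLPP3* that the measure of likeness itself selects for. ENSG00000133561 followed with 0.24, at 2.24 ± 0.14 CPM in si-Control and 0.81 ± 0.13 CPM in si-KRT7 cells (SD, n = 3 each), from only 18 to 85 reads per library. Of the other genes of the set, *LPAR1* was the nearest to *PLPP3*, with a difference of 0.80 and rank 163. No test was made on this likeness, and the identifiers are not paired with gene names here.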

How the data were processed

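Poly(A) RNA of CFPAC-1 cells transfected with si-Control or si-KRT7 (3 libraries each) was sequenced on the DNBSEQ platform. The authors deposited raw read counts, 1 column per library. The submitters' processing notes name STAR 2.7.11b and the mouse build GRCm39, whereas all 30543 identifiers have the human Ensembl form. The counting tool and strand setting are not given in the sources used here. No column was left unused (0).

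Counts were filtered with filterByExpr, normalized with TMM (factors 0.976 to 1.03) and fitted with glmQLFit and glmQLFTest in edgeR 4.0.16 (R 4.3.3), with Benjamini-Hochberg adjustment over 15736 genes. The limits on the adjusted p (0.05) and log2 fold change (1) are those the study states for its cohorts. CPM used TMM-scaled library sizes, and log2 CPM a prior count of 2. Standard errors were taken as the log2 fold change divided by the square root of F, and intervals from the matching t quantiles. Both are approximate. Counting errors are Poisson errors of reads, not molecules. The scripts were checked on simulated counts with the same spread beyond counting error for all genes. No simulated library stood apart, so that check does not cover the part of si-KRT7 replicate 2.

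All 9 listed genes were to be named, and 2 genes most like *PLPP3*. Names came from the list of genes, since 0 of the 30543 identifiers matched the name table used here, which is that of the mouse. Further lists of phosphatases, receptors, enzymes and cell type markers were for that reason not analysed here, and no sequence was printed. The genes, lists and tests were chosen with earlier results of these data known. The alternatives were DESeq2 1.42.0, its size factors in edgeR, library size only, voom in limma 3.58.1 without and with quality weights for the samples, other count filters, each library left out and the replicate number as a block.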

Additional observations from a re-analysis of the deposited data

How the results depend on the processing

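*PLPP3* passed both limits in all 14 alternatives, with a log2 fold change between -1.81 and -1.64, and no other of the 8 genes passed both in any of them. *LPAR1* (-0.71 to -0.48), *LPAR2* (-0.79 to -0.53), *SPHK1* (-0.96 to -0.51), *PLPP2* (-0.27 to -0.05) and *LPAR3* (0.07 to 0.29) kept their direction. The log2 fold change of *PLPP1* ran from -0.01 to 0.06 (0.0507 without si-KRT7 replicate 2, and -0.0133, -0.00223 and -0.0128 without si-Control replicate 2 and si-KRT7 replicates 1 and 3), and that of *LPAR6* from -0.04 to 0.22 (-0.0388 without si-KRT7 replicate 1).

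The number of the 8 genes with an adjusted p under 0.05, a count added after seeing the data, was 1. It was 4 with the DESeq2 Wald test and with no filter on counts (*PLPP3*, *LPAR1*, *LPAR2* and *SPHK1* in both) and 6 with limma-voom and sample quality weights. It ranged from 1 to 6 with each library left out, with 6 only without si-KRT7 replicate 2. Of all genes, 46 passed both limits and 325 the adjusted p. These numbers were 103 and 1148 with the DESeq2 Wald test, 443 and 6858 with quality weights, and 154 and 1347 with no filter. With a library left out they ranged from 6 (without si-Control replicates 1 or 2) to 356 (without si-KRT7 replicate 2), and from 6 to 6944, and each library left out moved both by over 1.5 times. The cause was not tested. With a library left out, the difference in *PLPP2* reads per 100 *PLPP1* reads (-37.1, si-KRT7 minus si-Control) ran from -80.6 without si-KRT7 replicate 2 to -7.45 without replicate 3.

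With the replicate block, 25 and 76 of all genes passed (0.483% for the 76), and of the 8 *PLPP3* alone. Deviations of same-numbered libraries from group means, which si-KRT7 replicate 2 shifted, correlated at 0.0520, -0.0798 and -0.0728. Counting error was at most 6.24% in a library. For *PLPP1* it was about as large as the spread in both groups (3.29% and 4.95%), and for *LPAR6* it exceeded the si-Control spread (2.12%). Depth and batch were not tested.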
